A study of Mus musculus with 4 samples.

Results

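The genes described here were 10 established markers of heat-producing fat, Ucp1, Cidea, Ppargc1a, Dio2, Cox8b, Cox7a1, Elovl3, Prdm16, Ckb and Kcnk3, which make up 10 of the 24421 genes in the deposited matrices. They were matched by symbol alone, with no threshold on a measured value. Poly(A) RNA of epididymal adipose tissue, a visceral white fat depot, was sequenced in 4 libraries, 2 of high-fat control mice (Ctrl) and 2 of weight-cycled mice (WC1). All were male wild-type C57BL/6J mice that had eaten high-fat diet for 14 weeks in all when the diets ended at 24 weeks of age. In Ctrl these weeks were unbroken and began at 10 weeks of age. In WC1 they began at 8 weeks of age and were split into blocks of 8 and 6 weeks by 2 weeks on standard diet. The labels do not say whether a library came from 1 mouse, so p-values measure only the spread between these libraries, which may be technical. The comparison asks whether the thermogenic programme of this white depot differed between mice with and without the break in high-fat feeding.

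Brown adipocytes, and the beige adipocytes that arise within white fat on cold exposure or adrenergic stimulation, burn fuel to make heat. Noradrenaline raises cAMP in these cells, lipolysis releases fatty acids, and uncoupling protein 1 in the inner mitochondrial membrane lets protons return without making ATP. Other routes to heat do not need that protein, among them cycles that spend ATP on creatine phosphorylation, calcium pumping or lipid turnover. The epididymal depot of the mouse is known as one of the depots least prone to browning.

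The libraries held between 61465029 and 90965297 reads assigned to genes, so that 3 reads, the limit that a count of 0 allows, corresponded to between 0.0345 and 0.0492 CPM. CPM here means reads scaled by a library size that the authors had rescaled. Markers of white adipocytes were abundant in all 4 libraries, their 12 genes summing to 11846 and 13832 CPM in the Ctrl libraries and to 22693 and 30565 CPM in the WC1 libraries. The defining genes of classical brown adipocytes, Zic1 and Lhx8, were at or near 0, Zic1 at 0 in every library and Lhx8 at 0 in both Ctrl libraries, at 0.180 CPM in WC1 1 and at 0.0318 CPM in WC1 2. Of 9 epididymis markers, 7 were at 0 in every library. Adam7 was listed at 3.02 CPM in WC1 1, at 0.0318 CPM in WC1 2 and at 0 in the Ctrl libraries. Counting intervals and limits quoted here cover counting error only.

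Because many of these genes are driven by cAMP and by nuclear receptors, the upstream sequences of 3 of them are given with the sites that a letter search found. The RefSeq promoter table (GRCm38.p6) held 7 of the 10 genes, and Cidea, Elovl3 and Kcnk3 were not among them. Each line gives the 250 bases before the RefSeq start site on the coding strand, 5′ to 3′, for Dio2 (chr12:90739039-90739288, minus strand), Ucp1 (chr8:83290098-83290347, plus strand) and Ppargc1a (chr5:51567726-51567975, minus strand). Capitals mark TGACG, the core of the cAMP response element, and AGGTCA, the core bound by many nuclear receptors, on either strand.

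Dio2: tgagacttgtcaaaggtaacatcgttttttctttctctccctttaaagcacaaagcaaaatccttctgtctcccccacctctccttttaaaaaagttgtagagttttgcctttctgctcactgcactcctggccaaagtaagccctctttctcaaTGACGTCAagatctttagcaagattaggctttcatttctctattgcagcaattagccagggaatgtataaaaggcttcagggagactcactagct
Ucp1: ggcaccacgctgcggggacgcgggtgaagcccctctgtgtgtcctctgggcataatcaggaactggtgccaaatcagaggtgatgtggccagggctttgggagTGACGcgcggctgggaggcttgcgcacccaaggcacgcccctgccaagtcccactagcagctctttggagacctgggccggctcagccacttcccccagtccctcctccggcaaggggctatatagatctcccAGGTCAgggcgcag
Ppargc1a: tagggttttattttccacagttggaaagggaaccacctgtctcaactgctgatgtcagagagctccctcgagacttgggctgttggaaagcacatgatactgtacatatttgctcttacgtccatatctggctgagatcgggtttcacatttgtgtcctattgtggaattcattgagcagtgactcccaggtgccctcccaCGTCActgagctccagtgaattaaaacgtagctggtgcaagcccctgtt

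In the window from 250 bases before to 50 bases after the start site, the full palindrome TGACGTCA, which holds TGACG on both strands, was present in 588 of 32851 promoters (1.79%) and, among the 7 genes, in Dio2, where it began 95 bases before the start site. TGACG was found in 20.8% of all promoters and in those of Dio2, Ucp1 and Ppargc1a. AGGTCA was found in 16.3% of all promoters and in that of Ucp1, beginning 14 bases before the start site. The longer form AAGGTCA (4.72% of all promoters), 2 copies of AGGTCA set 1 base apart (13 promoters, 0.0396%) and TCCC and GGGA with 2 bases between them (0.904%) were not found in these windows of the 7 genes. TATAAA was found in 13.6% of all promoters and in those of Cox8b, Dio2 and Ckb. These are matches of letters only, and both strands were searched.

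Levels of the 10 genes spanned more than 3 orders of magnitude. Compared per transcript length, as TPM averaged over the 4 libraries, the order was Ckb (602 ± 177 TPM, SD, n = 4 libraries), Cox8b (28.2 ± 7.96), Kcnk3 (18.5 ± 7.78), Cox7a1 (12.7 ± 1.04), Cidea (2.86 ± 1.35), Elovl3 (2.28 ± 1.38), Prdm16 (1.75 ± 0.771), Dio2 (1.71 ± 0.393), Ppargc1a (0.661 ± 0.258) and Ucp1 (0.223 ± 0.0815). Library values of neighbours did not overlap between Ckb and Cox8b, Cox7a1 and Cidea, Dio2 and Ppargc1a, or Ppargc1a and Ucp1, and they overlapped for every other pair of neighbours. Of the genes that passed the filter on low values, 98.2% had a lower mean TPM than Ckb, 63.7% a lower one than Cox8b and 0.525% a lower one than Ucp1. Ckb was therefore the one abundant transcript of the group, while Ucp1 lay below almost every gene tested. Ucp1 itself did not pass that filter, which favours a low place against genes that did.

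**Figure D1:**
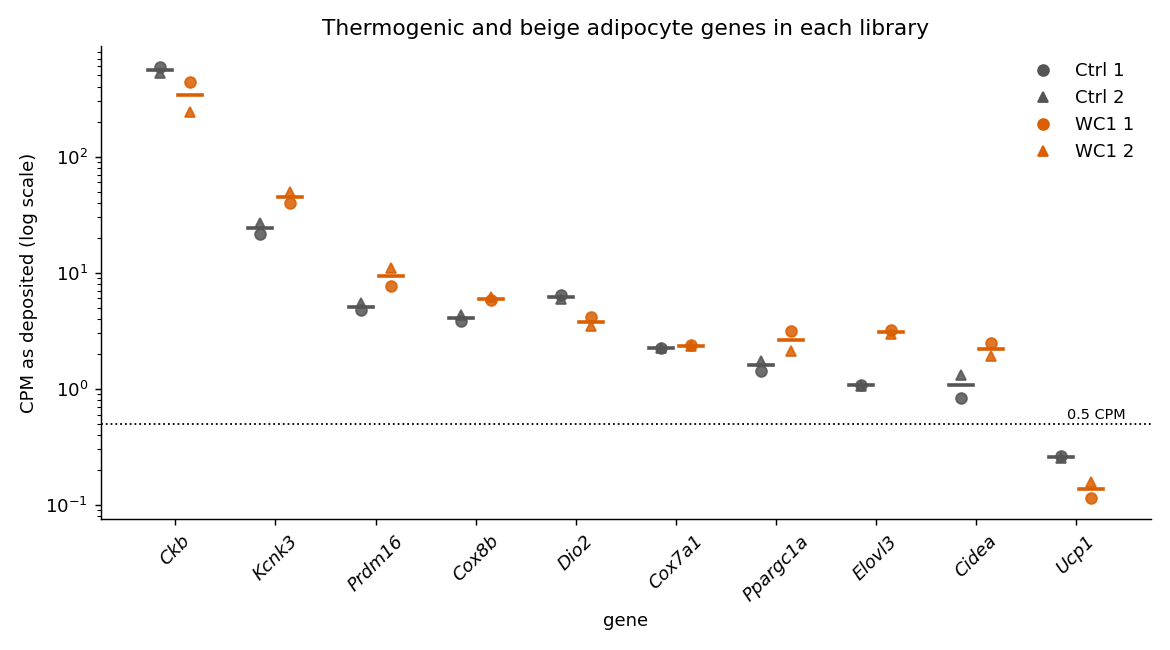
CPM of the 10 genes in each library on a log axis, ordered by mean CPM, with Ctrl in grey and WC1 in orange, library 1 as a circle and library 2 as a triangle, and horizontal bars for the group means. Ckb lies between 241 and 586 CPM, Ucp1 lies under the dotted line of the 0.5 CPM filter in all 4 libraries, and the 2 groups do not overlap for any of the 10 genes. Of all genes tested, 32.7% were higher and 36.6% lower in WC1 without overlap.

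Expression was compared by limma on log2(CPM + 1), fitted to the 14106 genes that reached 0.5 CPM in 2 or more libraries. The 9 genes other than Ucp1 passed this filter, each with over 0.5 CPM in all 4 libraries. Elovl3 and Kcnk3 were significantly higher and Dio2 significantly lower in WC1 (threshold of 0.05 on the adjusted p), and the other 6 did not pass the test. Thus 2 of 9 (22.2%) were called higher, against 10.2% of all genes tested, and 1 of 9 (11.1%) lower, against 7.71%. The libraries of the groups did not overlap for any of the 9, with 7 higher (77.8%, against 32.7% of all genes tested) and 2 lower in WC1 (22.2%, against 36.6%). The median log2 difference of the 9 was 0.48 and that of all genes tested was -0.02. With 2 libraries a group, exact permutation over libraries gives no p below 0.333 for any gene.

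These calls needed both Ctrl libraries. Without Ctrl 1 or without Ctrl 2, limma called 0 of the 9 genes in either direction, although 3 and 6 of them had unadjusted p-values under 0.05. Of all 14106 genes, 2 were then called higher and 4 lower without Ctrl 1, and 6 and 6 without Ctrl 2. Without WC1 1, 4 of the 9 genes were called higher and 2 lower, in a fit that called 17.2% of all genes higher and 19.5% lower. Without WC1 2, 3 were called higher and 0 lower, with 8 of the 9 having unadjusted p under 0.05, where 10.1% of all genes were called higher and 8.73% lower. No gene of the 9 changed direction in any alternative.

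**Figure D2:**
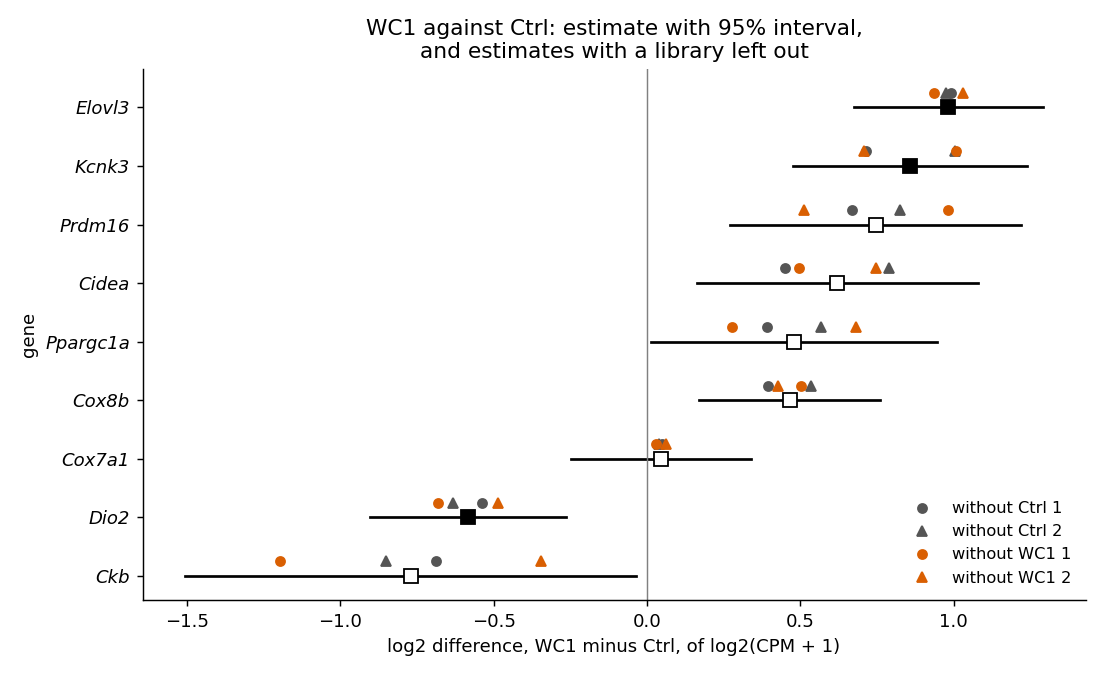
Log2 difference (WC1 minus Ctrl, of log2(CPM + 1)) of the 9 tested genes, with squares for the limma estimate, filled where the adjusted p was under 0.05, bars for its 95% interval, and coloured points for the estimate with each library left out. Elovl3, Kcnk3 and Dio2 are filled, the interval of Cox7a1 spans 0, and the points of Ckb run from -1.20 without WC1 1 to -0.34 without WC1 2.

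Ucp1 encodes the uncoupling protein itself. Its reads numbered 18 in Ctrl 1, 22 in Ctrl 2, 7 in WC1 1 and 10 in WC1 2, which correspond to 0.263, 0.253, 0.115 and 0.159 CPM. The exact Poisson 95% intervals of these libraries were 0.156 to 0.416, 0.158 to 0.383, 0.0461 to 0.236 and 0.0762 to 0.292 CPM. Both WC1 libraries were below both Ctrl libraries, but the intervals overlapped between groups. Ucp1 was under the filter and was not tested in the main comparison. When no filter was set, the log2 difference was -0.15 on the log2(CPM + 1) scale (limma unadjusted p = 0.0318, adjusted p = 0.124), and -0.89 in edgeR on the reads (adjusted p = 0.426), and neither passed the threshold. Ucp1 reached between 0.0074% and 0.0194% of the TPM of Ucp2, a related mitochondrial carrier abundant in leukocytes.

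Prdm16 encodes a transcriptional coregulator that commits cells to the brown and beige fate. It measured 4.78 CPM in Ctrl 1, 5.45 in Ctrl 2, 7.70 in WC1 1 and 11.0 in WC1 2. Both WC1 libraries were above both Ctrl libraries, and WC1 2 was the highest. The means were 5.11 ± 0.471 CPM in Ctrl and 9.37 ± 2.36 CPM in WC1 (SD, n = 2 each), a ratio of 1.83. The log2 difference was 0.75 ± 0.18 (SE; 95% interval 0.27 to 1.22) and missed the threshold (limma adjusted p = 0.0527, from 0.0028 to 0.28 over the alternatives, of which 3 of 13 made the call). A non-coding gene, B230104I21Rik, overlaps exons of Prdm16 on the opposite strand and was not analysed here.

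Ppargc1a encodes PGC-1α, the cAMP-induced coactivator of mitochondrial biogenesis. It was low in all libraries, with 1.43 CPM in Ctrl 1, 1.75 in Ctrl 2, 3.15 in WC1 1 and 2.13 in WC1 2. The values were higher in WC1 without overlap, with a ratio of means of 1.66. Its log2 difference of 0.48 ± 0.18 (95% interval 0.01 to 0.94) did not pass the test (limma adjusted p = 0.126). Leaving out WC1 2 raised it to 0.68 (adjusted p = 0.0399), whereas leaving out WC1 1 lowered it to 0.28 (adjusted p = 0.245), the range over all alternatives being 0.04 to 0.45. Its paralog Ppargc1b was not called, with a log2 difference of 0.14, and Ppargc1a reached between 22.2% and 41.3% of the TPM of Ppargc1b.

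Dio2 encodes the deiodinase that turns thyroxine into active thyroid hormone inside the cell, a step that thermogenic fat switches on through cAMP. It lies on chromosome 12 (GENCODE M21 gene at 90724552 to 90738438, GRCm38, minus strand), and the RefSeq start used for the sequence above lies upstream of that gene's end coordinate. Dio2 measured 6.40 CPM in Ctrl 1, 5.93 in Ctrl 2, 4.11 in WC1 1 and 3.46 in WC1 2. Both WC1 libraries were thus lower, with means of 6.17 ± 0.336 CPM in Ctrl and 3.79 ± 0.46 CPM in WC1 and a ratio of Ctrl to WC1 of 1.63. The log2 difference was -0.58 ± 0.12 (95% interval -0.90 to -0.26, limma adjusted p = 0.0391). The call was lost without Ctrl 1 (adjusted p = 0.258), without Ctrl 2 (0.178) and without WC1 2 (0.0633), with no filter on low values (0.073) and in the TPM matrix (0.0757), and it held in 8 of 13 alternatives (0.0068 to 0.26). In the TPM matrix the difference was -0.35, or -0.46 relative to the median of all genes, which stood at 0.10 there. The gene Gm26512 overlaps exons of Dio2 on the opposite strand and was not analysed here. Of the other deiodinases, Dio1 was at 0 in 3 libraries, and Dio3, which inactivates thyroid hormone, measured 0.541 and 0.517 CPM in Ctrl and 0.983 and 1.46 CPM in WC1 and was not called (adjusted p = 0.0764).

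Cox8b and Cox7a1 encode the heart and muscle type isoforms of cytochrome c oxidase subunits that brown fat shares with striated muscle. Cox8b measured 3.82 and 4.31 CPM in Ctrl 1 and Ctrl 2 and 5.80 and 6.16 CPM in WC1 1 and WC1 2. The WC1 libraries lay above the Ctrl libraries, with a ratio of means of 1.47. The log2 difference of 0.46 ± 0.11 (95% interval 0.17 to 0.76) missed the threshold (limma adjusted p = 0.0526, from 0.024 to 0.31 over the alternatives, of which 4 of 13 made the call). Cox7a1 measured 2.27, 2.24, 2.39 and 2.32 CPM in the same order of libraries. Its levels ran from 2.24 to 2.39 CPM over all libraries, and its log2 difference was 0.04 ± 0.11, with a 95% interval of -0.25 to 0.34 (adjusted p = 0.80). The isoforms that most tissues use were far more abundant, Cox8b reaching between 2.60% and 3.53% of the TPM of Cox8a and Cox7a1 between 4.89% and 5.64% of that of Cox7a2. Of 10 subunits common to all tissues, Cox5a alone (10%, against 7.71% of all genes) was called, lower in WC1 (log2 difference -0.36 ± 0.08, limma adjusted p = 0.0423, from 0.014 to 0.286 over the alternatives). That call was lost in the TPM matrix (0.125), with no filter (0.0611), in edgeR with and without the filter (0.0548 and 0.0672), without Ctrl 1 (0.286) and without Ctrl 2 (0.15). The summed level of 13 skeletal muscle markers, 21.6 and 27.2 CPM in the Ctrl libraries against 49.5 and 53.6 CPM in those of WC1, was higher in the same libraries as Cox8b. Of the 7 tested, Acta1, Myl1 and Pvalb were called higher and made up that difference, since the other 10 markers together came to 4.15 and 3.60 CPM in the Ctrl libraries and 4.15 and 4.81 CPM in those of WC1. Ckm, the muscle creatine kinase, lay between 0 and 0.205 CPM. The part of muscle RNA in the Cox8b values was not tested.

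Cidea encodes a lipid droplet protein of brown and beige adipocytes. It measured 0.833 CPM in Ctrl 1, 1.32 in Ctrl 2, 2.46 in WC1 1 and 1.91 in WC1 2, or 57, 115, 150 and 120 reads. The WC1 libraries were higher, with a ratio of means of 2.03. The log2 difference was 0.62 ± 0.18 (95% interval 0.16 to 1.08) and did not pass the test (limma adjusted p = 0.0717, from 0.037 to 0.35 over the alternatives). On the reads it was 1.03 in both DESeq2 (adjusted p = 0.0368) and edgeR (adjusted p = 0.0862), and 2 of 13 alternatives made the call. Cidec, the family member of white adipocytes, had a TPM between 699 and 1215 times that of Cidea, and its log2 difference of 0.82 ± 0.21 was not called either (adjusted p = 0.0535).

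Elovl3 encodes an elongase of saturated and monounsaturated very long chain fatty acids, induced by cold in brown fat. It lies on chromosome 19 (46131897 to 46135694, GRCm38, plus strand, GENCODE M21). Elovl3 measured 1.08 CPM in Ctrl 1, 1.06 in Ctrl 2, 3.23 in WC1 1 and 2.95 in WC1 2, or 74, 92, 197 and 186 reads. The libraries of each group were close together and the groups far apart, the means being 1.07 ± 0.0175 CPM (Ctrl) and 3.09 ± 0.194 CPM (WC1), a ratio of 2.89. The log2 difference was 0.98 ± 0.12 (95% interval 0.68 to 1.29, limma adjusted p = 0.0165). On the reads, edgeR gave 1.55 (adjusted p = 0.021), since the log2(CPM + 1) scale understates the change of a gene this low. The call held in 11 of 13 alternatives (adjusted p from 2.1e-06 to 0.15) and was lost without Ctrl 1 (0.99, adjusted p = 0.15) and without Ctrl 2 (0.97, adjusted p = 0.112). Pitx3, which overlaps exons of Elovl3 on the opposite strand, lay between 0.0731 and 0.328 CPM. Among the other elongases, Elovl6, an insulin-induced enzyme of fat synthesis, was also called higher (log2 difference 0.85 ± 0.11, adjusted p = 0.0188), Elovl1, Elovl5 and Elovl7 were not called, and Elovl2 and Elovl4 were under the filter. Elovl3 reached between 23.5% and 39.0% of the TPM of Elovl6.

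Ckb encodes the brain type creatine kinase, which drives the creatine cycle of thermogenic fat and is also expressed in many other cells. It measured 586 CPM in Ctrl 1, 523 in Ctrl 2, 436 in WC1 1 and 241 in WC1 2. The WC1 libraries were lower, and they differed from each other more than the Ctrl libraries did. The means were 555 ± 44.7 CPM in Ctrl and 339 ± 138 CPM in WC1, a ratio of Ctrl to WC1 of 1.64. The log2 difference of -0.77 ± 0.29 (95% interval -1.50 to -0.04) did not pass the test (limma adjusted p = 0.121, from 0.00078 to 0.41 over the alternatives). It was -1.20 without WC1 1 (adjusted p = 0.00078) and -0.34 without WC1 2 (adjusted p = 0.0576). The summed level of 11 macrophage markers was 20879 CPM in Ctrl 1, 18620 in Ctrl 2, 12572 in WC1 1 and 7886 in WC1 2, the same order of libraries as for Ckb, and the part of macrophage RNA in the Ckb values was not tested. In bulk tissue, fewer cells of a type and less RNA per cell cannot be told apart. The other creatine kinases were at or near 0, Ckmt2 at 0 in every library, Ckm at no more than 0.205 CPM and Ckmt1 between 0.0804 and 0.572 CPM.

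Kcnk3 encodes TASK-1, a background potassium channel of thermogenic adipocytes that is also found in vascular smooth muscle. It lies on chromosome 5 (30588170 to 30625271, GRCm38, plus strand, GENCODE M21). Kcnk3 measured 21.6 CPM in Ctrl 1, 26.7 in Ctrl 2, 39.9 in WC1 1 and 49.3 in WC1 2. Both WC1 libraries were higher, with means of 24.1 ± 3.56 CPM in Ctrl and 44.6 ± 6.65 CPM in WC1, a ratio of 1.85. The log2 difference was 0.86 ± 0.15 (95% interval 0.48 to 1.24, limma adjusted p = 0.0271). The call held in 10 of 13 alternatives (adjusted p from 1.3e-05 to 0.18) and was lost without Ctrl 1 (adjusted p = 0.182), without Ctrl 2 (adjusted p = 0.102) and with no filter on low values (adjusted p = 0.0518). Gm9899, which overlaps exons of Kcnk3 on the opposite strand, went from 1.23 and 1.61 CPM in Ctrl to 2.05 and 2.43 CPM in WC1. The summed level of 10 smooth muscle and pericyte markers went from 373 and 379 CPM in Ctrl to 559 and 623 CPM in WC1. Of the 10, 5 were called higher (50%, against 10.2% of all genes tested), among them Acta2 (log2 difference 1.19 ± 0.09). Pdgfrb was not called (0.05 ± 0.07), and 2 of the 10 were lower in WC1 without overlap (20%, against 36.6%). The part of these cells in the Kcnk3 values was not tested. Other potassium channels of the family went either way, Kcnk5 being called higher (0.55 ± 0.13) and Kcnk13, a channel best known from microglia, lower (-1.20 ± 0.17, from 30.9 and 28.8 CPM to 14.9 and 10.3 CPM), while Kcnk2 and Kcnk6 were not called.

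White adipocyte markers were themselves higher in WC1, 9 of the 12 being called, among them Aqp7 (log2 difference 1.20 ± 0.13), and Adipoq, Lep and Plin1 at 1.23, 1.34 and 1.03. With no filter on low values, where 4.35% of all genes were called higher, 2 of these 12 markers were called. All 12 were above Ctrl in both WC1 libraries. The levels of the 10 genes were therefore also set against the mean log2(CPM + 1) of these 12 markers in the same library, which was 8.64, 8.92, 9.69 and 10.2 in Ctrl 1, Ctrl 2, WC1 1 and WC1 2, a difference of 1.15. Because this marker mean rose while the median of all genes did not, 96% of all genes tested were lower in WC1 without overlap on this relative scale and 0.574% were higher. The 9 of the 10 genes that were lower without overlap (all but Elovl3, which overlapped) are therefore no result about these genes. The relative log2 difference was largest in size for Ckb (-1.92) and Dio2 (-1.74), followed by Ucp1 (-1.30) and Cox7a1 (-1.11). It was smaller for Cox8b (-0.69), Ppargc1a (-0.67), Cidea (-0.53), Prdm16 (-0.41), Kcnk3 (-0.29) and Elovl3 (-0.17). With a pseudocount of 0.1 in place of 1, which shrinks low genes less, 7 of the 10 were lower without overlap, against 92.9% of all genes tested (1.3% were higher), Cidea (-0.18) and Ppargc1a (-0.48) overlapped, and Elovl3 turned to 0.29 with overlap. These are descriptions with no test, and the marker mean is no count of adipocytes.

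**Figure D3:**
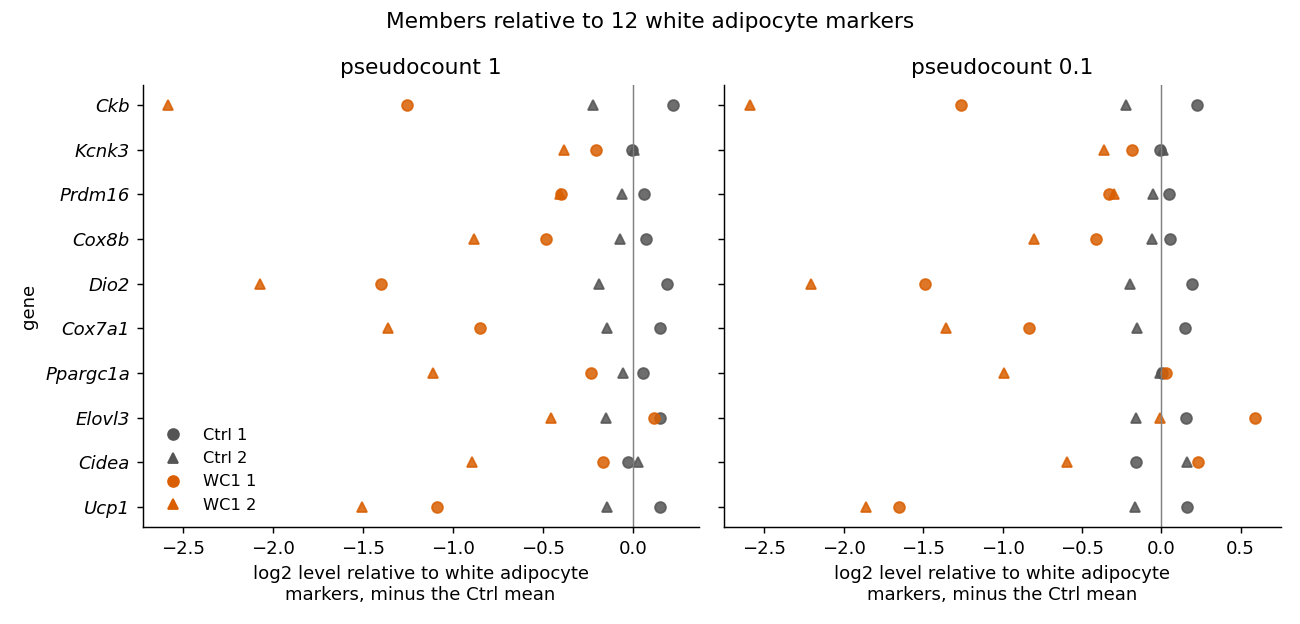
Level of each of the 10 genes relative to the mean of 12 white adipocyte markers in the same library, as a log2 value with the Ctrl mean set to 0, with a pseudocount of 1 (left) and of 0.1 (right). Ctrl is grey and WC1 orange, with circles for library 1 and triangles for library 2. Ckb and Dio2 lie farthest to the left in WC1, and Elovl3 overlaps between groups in both panels and changes sign between them.

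Other genes of the thermogenic pathway were taken from 9 lists by role, 135 genes in all, of which 120 passed the filter. Of these, 32 (26.7%) were called higher, against 10.2% of all genes tested, and 8 (6.67%) lower, against 7.71%, with a median log2 difference of 0.13. As for the 10 genes, the calls needed both Ctrl libraries, with 0 pathway genes called by limma without Ctrl 1 or without Ctrl 2 (39 and 45 with unadjusted p under 0.05), while without WC1 1 the calls numbered 43 higher and 21 lower, with 17.2% and 19.5% of all genes called. Adipocytes express many of these genes, and the white adipocyte markers moved with them. Their part in the counts was not tested.

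The receptors and enzymes through which sympathetic nerves and hormones reach the adipocyte gave 8 genes called higher of 20, with a median of 0.19. This is 40%, against 10.2% of all genes tested, and 1 was called lower (5%, against 7.71%). A log2 difference below 0 was found in 8 of the 20, and 7 were lower without overlap (35%, against 36.6%). Klb, the coreceptor for FGF21, measured 9.80 and 10.5 CPM in Ctrl and 23.2 and 32.2 CPM in WC1, a log2 difference of 1.35 ± 0.17 (limma adjusted p = 0.0171). Npr3, the clearance receptor of natriuretic peptides, rose by 1.09 ± 0.15, and Pde3b, which breaks down cAMP downstream of insulin, by 0.70 ± 0.09. Adrb3, the adrenergic receptor typical of adipocytes, named here after its values were seen, went from 39.7 and 61.6 CPM to 96.8 and 166 CPM (1.34 ± 0.32, adjusted p = 0.0488). Adrb1, named on the same footing, went from 0.702 and 0.804 CPM to 1.47 and 2.07 CPM (0.65 ± 0.16, adjusted p = 0.0494). Of the nerve markers, Th and Dbh, the enzymes that make noradrenaline, were at 0 in every library.

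Of 22 activators of the brown fat programme, 3 were called higher and 3 lower, with a median of 0.04. Each count is 13.6% of the 22, near the shares of all genes tested (10.2% higher and 7.71% lower). Those called higher were Pparg (0.41 ± 0.08), the master regulator of adipocytes, Irf4 (0.70 ± 0.14), a partner of PGC-1α, and Esrrg (0.77 ± 0.14), an oestrogen-related receptor. Called lower were Cebpb (-0.78 ± 0.08), a partner of PRDM16 that macrophages also express, Plac8 (-0.77 ± 0.17) and Hlx (-0.35 ± 0.08). Ebf2, a factor of brown and beige precursors named after its values were seen, lay between 17.9 and 19.1 CPM in all libraries, with a log2 difference of 0.01. Of 10 repressors of browning, 4 were called higher and 1 lower (40% and 10%, against 10.2% and 7.71% of all genes tested), with a median of 0.15. Nrip1, the corepressor RIP140, rose by 0.74 ± 0.13 and Zfp423, which keeps adipocytes white, by 0.86 ± 0.15 (from 20.6 and 25.3 CPM to 37.9 and 47.1 CPM). Trpv4, a cation channel, fell by 0.83 ± 0.13. Wnt10b, an inhibitor of adipogenesis, measured 0.132 and 0.414 CPM in Ctrl and 1.74 and 1.75 CPM in WC1. It passed the filter only through the WC1 libraries, so its call among the 4 (1.12 ± 0.16) depends on the group where it was high. Mecom, the paralog of Prdm16, was also called higher (1.20 ± 0.20).

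Of 10 beige markers, 6 passed the filter and only Ear2 was called (0.95 ± 0.15), 1 of a family of closely similar ribonuclease genes among which reads may be split. Tmem26, named after its values were seen, lay between 1.49 and 1.95 CPM with a log2 difference of 0.08. Of 18 brown markers, 15 passed the filter, 5 were called, all higher, with a median of 0.38. These are 33.3% of the 15, against 10.2% of all genes tested. Another 3 of the 15 were lower in WC1 without overlap (20%, against 36.6%), and edgeR called 1 lower (7.14% of all genes). Slc36a2, a proton-coupled amino acid transporter on the surface of brown adipocytes, measured 118 CPM in both Ctrl libraries and 250 and 239 CPM in WC1 (1.05 ± 0.07, limma adjusted p = 0.00726). Mtus1 (0.59 ± 0.10) and Oplah (0.53 ± 0.10), an enzyme of glutathione turnover, followed.

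Heat cycles that do not need UCP1 gave 4 called genes among 14 tested of 18, all higher, with a median of 0.34. These are 28.6% of the 14, against 10.2% of all genes tested, and 4 of the 14 had a log2 difference below 0. Atp2a3, a calcium pump of the endoplasmic reticulum, rose by 1.10 ± 0.10 (from 38.0 and 37.5 CPM to 75.2 and 90.0 CPM) and Ryr1, a calcium release channel, by 0.90 ± 0.11. Atp2a2, another such pump, named after its values were seen, was more abundant (245 and 274 CPM in Ctrl, 262 and 254 CPM in WC1). Its log2 difference was -0.007 ± 0.087 and was not called. Slc6a8, a creatine transporter named on the same footing, was lower in both WC1 libraries but not called (-0.64 ± 0.23, limma adjusted p = 0.109). Ucp3, a relative of UCP1, went from 8.55 and 9.60 CPM to 16.6 and 18.4 CPM (0.87 ± 0.11), whereas Ucp2 was not called (-0.18 ± 0.16). Pm20d1, an enzyme that makes uncoupling N-acyl amino acids, named after its values were seen, went from 1.93 and 2.16 CPM to 6.82 and 11.5 CPM (1.70 ± 0.24, adjusted p = 0.02). Of 17 genes that supply fuel, 16 passed the filter and 5 were called, all higher (31.25%, against 10.2% of all genes tested), with a median of 0.21. Among the 5 were Cpt2 (0.45 ± 0.08) and Hadhb (0.38 ± 0.08) of mitochondrial fatty acid oxidation and Gys2 (0.84 ± 0.16), a glycogen synthase. A log2 difference below 0 was found in 4 of the 16. Cpt1b, the muscle and brown fat type of the fatty acid importer, named after its values were seen, was not called (0.80 ± 0.24, adjusted p = 0.0776).

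**Figure D4:**
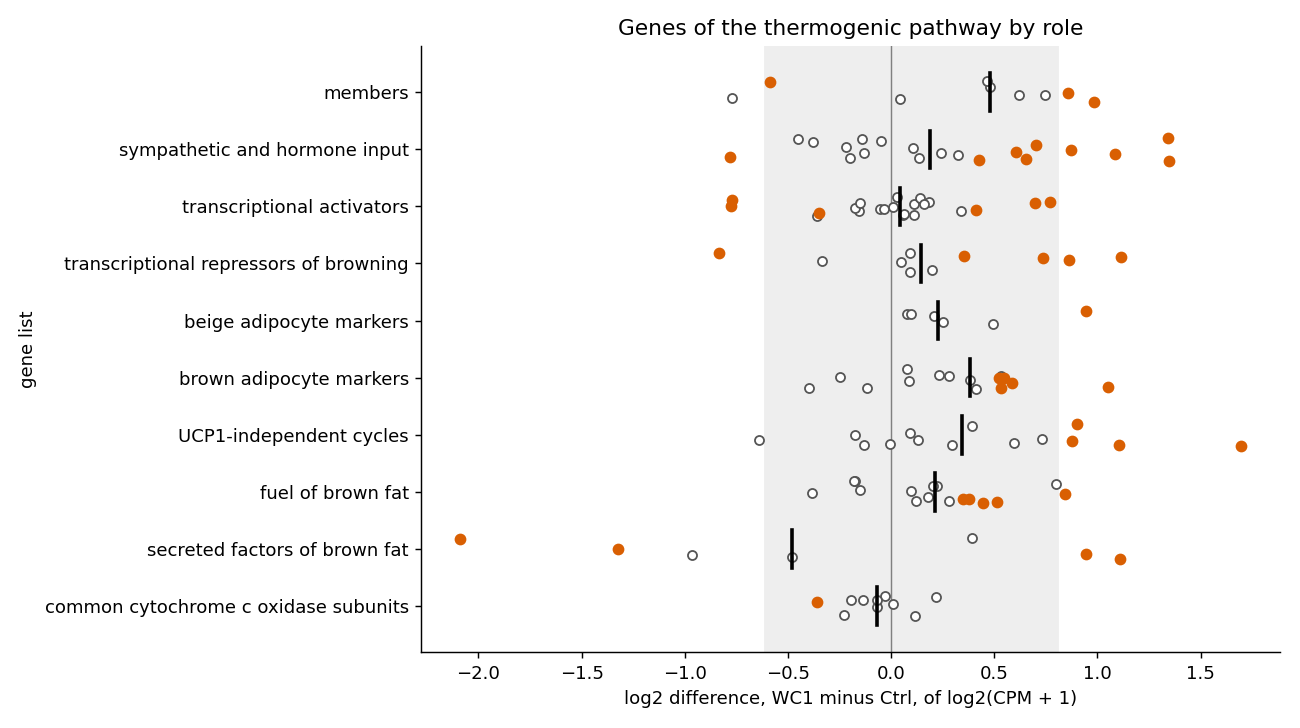
Log2 difference (WC1 minus Ctrl, of log2(CPM + 1)) of each tested gene in the group of 10 and in the 9 pathway lists, with filled points for genes at an adjusted p under 0.05, black bars for list medians and a grey band for the 5th to 95th percentile of all genes tested (-0.61 to 0.81). The median of the tested genes of the 10 is 0.48, medians of the lists run from -0.48 for secreted factors to 0.38 for brown adipocyte markers, and most points lie within the band.

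Cell type marker lists moved between the groups as well. Endothelial markers went from 492 and 545 CPM in Ctrl to 1018 and 1295 CPM in WC1, with 7 of 9 called higher, among them Cldn5 (1.76 ± 0.13). Macrophage markers were lower in both WC1 libraries for all 11 genes, and 4 were called lower, among them Mrc1 (-0.89 ± 0.13) and Lyz2 (-1.25 ± 0.25). That count was 11 without WC1 1 (19.5% of all genes called lower) and 8 without WC1 2 (8.73%), and 0 in limma without Ctrl 1 or without Ctrl 2, where 3 and 4 had unadjusted p under 0.05, and DESeq2 called 10. With no filter on low values, 1 macrophage and 1 fibroblast marker were called lower (2.93% of all genes) and 7 endothelial markers higher. Without either Ctrl library, limma called none of the other marker genes either, and 7 and 8 of the 9 endothelial markers had unadjusted p under 0.05. Of 7 fibroblast markers 3 were called, all lower (42.9%, against 7.71% of all genes tested), with Pdgfra at -0.59 ± 0.09. The other direction was taken by 2 of the 7, among them Col1a1 (0.09, not called). Without overlap, 5 of the 7 were lower (71.4%, against 36.6%) and 1 higher (14.3%, against 32.7%). How far these lists account for the levels of the 10 genes was not tested.

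**Figure D5:**
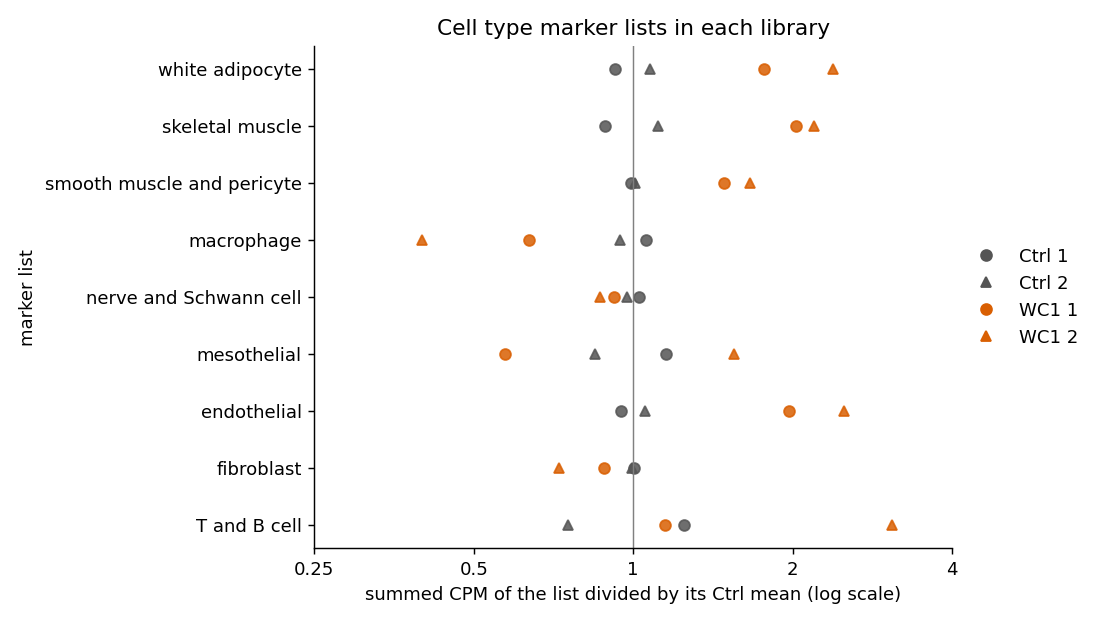
Summed CPM of each cell type marker list in each library divided by its Ctrl mean, on a log axis, with Ctrl in grey, WC1 in orange, circles for library 1 and triangles for library 2. White adipocyte, endothelial, skeletal muscle and smooth muscle sums are higher in both WC1 libraries, macrophage and fibroblast sums are lower, and the mesothelial sums of WC1 1 and WC1 2 lie on opposite sides of Ctrl.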

How the data were processed

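Poly(A), strand-specific libraries of epididymal adipose tissue were compared, 2 Ctrl against 2 WC1, with groups and library numbers taken from the sample titles. The submitters' processing notes name fastp, HISAT2, StringTie and mm10; the read counter, annotation and strand setting were not found there or in the study's methods. The first deposited matrix holds a signal proportional to reads, named CPM by the authors, whose columns sum to between 97.6% and 105% of what plain CPM gives, so the authors had rescaled library sizes. In each library 100% of its values were whole multiples of 1 read to within 0.01 read. The second deposited matrix holds TPM. Totals recovered were 71658062, 90965297, 61655738 and 61465029 reads (Ctrl 1, Ctrl 2, WC1 1, WC1 2).

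Genes reaching 0.5 CPM in 2 or more libraries were tested (14106, with 10315 removed) by limma 3.58.1 in R 4.3.3 on log2(CPM + 1), with an abundance trend, two-sided, and Benjamini-Hochberg adjustment over all genes at 0.05. Fold changes are WC1 minus Ctrl and understate changes of low genes. It called 1443 genes higher and 1088 lower, and edgeR 4.0.16 on the recovered reads called 1476 and 1007. Alternatives were median-of-ratios scaling, TPM, a pseudocount of 0.1, other filters, edgeR, DESeq2 1.42.0, a replicate block and each library left out, where the lone library was assumed to vary like the other group. An edgeR fit without a filter was added after seeing the data to cover Ucp1. The fitting code was tested on simulated data. Exons overlapping other genes and positions came from GENCODE M21, and 1 listed gene, Gk, was matched as Gyk through a RefSeq synonym.

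The 10 genes and all lists were chosen with earlier results of these data known. Named were the 10 genes, their family members, up to 3 called genes with the smallest p in each direction per pathway list (or, with none called, 2 with the highest mean CPM), and per marker list the 2 with the highest mean CPM and the called gene with the smallest p in each direction. Adipoq, Lep and Plin1 were named after their values were seen, as were the genes so marked in the text. Libraries of one group differed by more than sampling noise (chi-square over its degrees of freedom, 33.9 for the Ctrl pair and 83.7 for the WC1 pair). The values of 1 gene that the naming rule selects are not reported here.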

Additional observations from a re-analysis of the deposited data

How the results depend on the processing

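The 9 tested genes kept their direction in each of the 13 alternatives, and 94 of their 117 values kept their side of the threshold, 10 losing it (7 of them with a library left out) and 13 gaining it (4 of them with a library left out). Among 85 other named genes (Atp2a2 and Slc6a8 not included), 885 of 1105 values kept both, 164 were lost, 42 were gained and 14 turned direction. Against 2 genes of the 10 called higher, the TPM matrix gave 4, no filter 1 and DESeq2 5, and leaving out a library 0 to 4. Against 1 called lower, the TPM matrix gave 0, no filter 0 (in both, 7 genes had unadjusted p under 0.05) and DESeq2 2, and leaving out a library 0 to 2. Against 32 pathway genes higher and 8 lower, no filter gave 16 and 4, DESeq2 gave 14 lower, and leaving out a library 0 to 43 and 0 to 21. The cause was not tested, except that no filter tests more genes. Calls over all genes moved too, from 10.2% higher and 7.71% lower to 15.1% and 12.3% in DESeq2 and 4.35% and 2.93% with no filter. The TPM matrix called 2054 higher and 583 lower (14.6% and 4.13%), against 1443 and 1088, and moved the median log2 difference from -0.02 to 0.10.

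With the replicate block, 4 of the 10 genes were called higher and 2 lower, and 38 pathway genes higher and 15 lower, while 12.5% of all genes were called higher and 10.6% lower. The labels do not say that a number marks a shared animal, litter or day, and over 14106 genes the differences between libraries 2 and 1 of the groups correlated at r = 0.19. With 2 pairs this does not settle whether libraries of the same number share a batch or day, which was not tested.

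None of the named genes that turned was called in the main comparison. These were Cox7a2 (0.071 in TPM, and from -0.14 to 0.0040 with a library left out), Mbp (0.13 in TPM), Col1a1 (-0.13 to 0.30 with a library left out), Ebf2 (-0.0350 to 0.051 likewise), Tmem26 (-0.017 to 0.17), Msln (-0.53 to 0.88) and Upk3b (0.072 in edgeR, 0.074 in DESeq2, 0.065 in edgeR without a filter, and -0.92 to 0.64 with a library left out). Counts were lowest for Ucp1, with 7 to 22 reads a library, and counting error also enters the values of Cidea (57 to 150 reads) and Elovl3 (74 to 197 reads). What limits each call was not tested.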

Other observations

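Secreted factors of brown fat went both ways. Of 10 listed, 7 passed the filter, 2 were called higher and 2 lower, with a median log2 difference of -0.48 on the log2(CPM + 1) scale. Gdf15, a stress-induced hormone that also comes from macrophages, measured 44.8 and 38.0 CPM in Ctrl and 10.7 and 7.45 CPM in WC1 (-2.09 ± 0.18, limma adjusted p = 0.0116), and Cxcl14, a chemokine, 26.9 and 34.9 CPM against 14.5 and 9.29 CPM (-1.32 ± 0.23). Vegfa, the growth factor of blood vessels, measured 47.4 and 59.1 CPM in Ctrl and 98.2 and 136 CPM in WC1 (1.11 ± 0.19), and Nrg4, a growth factor from brown fat, 7.19 and 9.10 CPM against 16.4 and 16.7 CPM (0.95 ± 0.13). In both Gdf15 and Vegfa the groups did not overlap.

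Among paralogs of the 10 genes, 20 of 29 passed the filter, 5 were called higher and 1 lower, with a median of 0.22. Cox4i2, an oxidase subunit isoform linked to oxygen sensing, was called higher (1.40 and 1.26 CPM in Ctrl, 3.15 and 3.34 CPM in WC1, 0.86 ± 0.12), while Cox6a2, the muscle and brown fat isoform, was not (0.23 ± 0.14).

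Of the remaining marker lists, mesothelial markers gave 0 calls among 10 genes in limma, edgeR and DESeq2, with 0 at an unadjusted p under 0.05. The WC1 libraries lay on opposite sides, limma calling 5 higher without WC1 1 and 4 lower without WC1 2, and the sum was 74.9 CPM in WC1 1 and 203 CPM in WC1 2, against 151 and 111 CPM in Ctrl. Markers of T and B cells gave 1 call of 10, Cd79b, higher in WC1 (0.95 ± 0.22), against 5 without WC1 1, where 17.2% of all genes were called higher, and 2 without WC1 2. Cd79a, a B cell gene, measured 9.64 CPM in WC1 2 against 2.02 CPM in WC1 1. Nerve and Schwann cell markers gave 1 call of 4 tested, Tubb3, lower in WC1 (-0.91 ± 0.20).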
